A study of Mus musculus with 4 samples.

Results

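Antibody-secreting cells are the plasmablasts and plasma cells that release immunoglobulin, and 10 genes of their program were followed here in RNA from sorted lung γδ T cells. The 10 genes are Igj, Mzb1, Txndc5, Sec11c, Prdm1, Derl3, Tnfrsf17, Fkbp11, Ell2 and Eaf2, out of 22865 gene symbols in the count table. All 10 had a row in the table. The set was chosen by gene name, with the counts of Igj and Mzb1 in these same 4 libraries known. The differences between genotypes are therefore given for these genes as descriptions, without a test.

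The libraries came from γδ T cells of the lungs of female C57Bl/6 mice, 10 weeks old, that were either Aire-/- or Aire+/+, with no treatment named. Cells were sorted as viable, CD45+, TCRgd+, TCRb-, CD27- and Vg1,2,4,5-, and the submitters call the population Tgd17. There were 2 libraries per genotype, each from 500 cells, made by Smart-Seq2, which copies full-length cDNA from few cells without molecular identifiers. The Aire-/- mice lack Aire, the regulator that lets thymic epithelium display tissue-restricted proteins. The making of the allele, and any pooling of animals, is not given in the sources used here. Nothing says that libraries of 1 genotype came from separate animals, so every SD and SE may reflect technical variation alone. Library totals ran from 1106891 to 1265239 counts. Aire had 0 counts in all 4 libraries, so it checked neither genotype label.

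T cell transcripts were abundant in all 4 libraries, with summed counts of Cd3d, Cd3e and Cd3g between 833 and 1283. The 14 genes on the T cell list summed to 7696 and 8300 CPM in the Aire-/- pair and to 5214 and 7256 CPM in the Aire+/+ pair. Of these, 12 had a fitted change above 0 (median 0.32 on the log2 scale), beside 4981 of all 9783 tested genes. In 7, or 50%, Aire-/- was higher without overlap, beside 17.2% of all tested genes. Both are opposite to the B cell list. Of the 14 genes 0 were called, beside 0.0204% of all tested genes called lower and 0% higher. B cell transcripts were abundant too, although the gate required TCRgd. The sum over Ms4a1, Cd79a and Cd79b came to 1499 and 1086 counts in Aire-/- replicates 1 and 2, and 2583 and 1564 in Aire+/+ replicates 1 and 2. Aire+/+ replicate 1 thus held the most B cell transcript, and the other Aire+/+ library lay close to Aire-/- replicate 1. In such bulk libraries, fewer cells of a type and less RNA per cell cannot be told apart.

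The joining chain, encoded by Igj (now Jchain), is a small secreted protein that links IgM into pentamers and IgA into dimers and lets both bind the polymeric immunoglobulin receptor. It is made by antibody-secreting cells, and its gene is switched on as B cells mature into them. The transcription factor Blimp-1 shuts down the B cell program in that step, while the unfolded protein response and its factor XBP1 enlarge the endoplasmic reticulum. Signal peptidase, protein disulfide isomerases, prolyl isomerases and the degradation machinery of the endoplasmic reticulum then serve the antibody load.

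The 250 bases before the start site are shown for Igj, the member with the greatest change in level, and for Derl3, which stayed at a few counts in the same libraries. Both are from RefSeq windows on GRCm38.p6, 1 window for each of these genes. Capitals mark ACGTG on either strand, the core shared by many sites of XBP1 and ATF6. In Derl3 they also mark a 19-base match to the endoplasmic reticulum stress response element, CCAAT and CCACG with 9 unspecified bases between, here on the opposite strand. The ACGTG match of Derl3 reads CACGTG, which matches on both strands, and does not overlap the longer element.
Igj, chr5:88527898-88528147, minus strand: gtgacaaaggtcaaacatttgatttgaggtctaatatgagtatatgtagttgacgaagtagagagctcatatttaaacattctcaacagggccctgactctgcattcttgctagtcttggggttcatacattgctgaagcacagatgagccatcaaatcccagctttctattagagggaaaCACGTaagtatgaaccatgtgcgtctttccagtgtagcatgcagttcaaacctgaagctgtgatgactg
Derl3, chr10:75893148-75893397, plus strand: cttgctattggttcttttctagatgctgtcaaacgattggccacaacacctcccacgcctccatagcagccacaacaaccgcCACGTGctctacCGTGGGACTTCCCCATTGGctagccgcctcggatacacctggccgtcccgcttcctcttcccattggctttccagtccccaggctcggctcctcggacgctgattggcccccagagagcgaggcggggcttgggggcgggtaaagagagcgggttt

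The Igj window holds 1 ACGTG match, read on the opposite strand and beginning 69 bases before the start site. The Derl3 element begins 156 bases before the start site, and neither window of Fkbp11 nor that of Tnfrsf17 holds either motif. Windows of Mzb1 and Sec11c were not examined, and Txndc5 and Eaf2 have 3 windows each. ACGTG occurs in 16.6% of 32851 RefSeq windows of this length. Among the 8 members examined it occurs in 5 of 13 windows, those of Igj, Derl3, Txndc5 and Eaf2. The stress response element occurs in 0.113% of all windows and in that of Derl3 alone among these members. The octamer ATGCAAAT, bound by Oct factors, occurs in 1.6% of all windows and in 0 of the 13. The E-box CANNTG, which overlaps ACGTG where it reads CACGTG, occurs in 66.2% of all windows and in 9 of the 13. A match is a description of the sequence, and the data hold no measure of binding.

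Igj was close to absent in Aire-/- libraries and abundant in Aire+/+ libraries. The gene lies on chromosome 5 from 88519809 to 88527897 (GRCm38), is protein-coding, and overlaps no other GENCODE gene. Its counts were 0 in Aire-/- replicate 1, 4 in Aire-/- replicate 2, 1674 in Aire+/+ replicate 1 and 827 in Aire+/+ replicate 2. Both Aire-/- libraries lay far below both Aire+/+ libraries. By count, Igj ranked 49 of 22865 genes in Aire+/+ replicate 1 and 139 in replicate 2. In CPM, counts scaled to library size, it stood at 1.85 ± 2.61 in Aire-/- and 1006 ± 448 in Aire+/+ libraries (SD, n = 2 each). The fitted log2 fold change, Aire-/- minus Aire+/+, was -9.03 (SE 0.55, edgeR). Igj passed the filter on low counts through its Aire+/+ libraries alone. Per kilobase of its longest protein-coding transcript, which has 4 exons and 1.39 kb, its mean level was 1.33 CPM in the Aire-/- pair and 722 CPM in the Aire+/+ pair.

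Igj was also set against the amount of B cell transcript in each library. Per 1000 counts of Ms4a1, Cd79a and Cd79b, Igj stood at 0 and 3.68 in Aire-/- replicates 1 and 2. In Aire+/+ replicates 1 and 2 it stood at 648 and 529. Aire-/- replicate 1 and Aire+/+ replicate 2 held nearly equal B cell sums, 1499 and 1564 counts, with 0 and 827 counts of Igj. The ratio of summed Igj to summed B cell counts was 390-fold higher in Aire+/+ than in Aire-/- libraries, with an exact 95% interval from 152 to 1430 for counting error alone. Within the Aire+/+ pair Igj was steadier against B cell than against T cell transcript, since per 1000 counts of the CD3 chains it stood at 2010 and 645. All 18 markers on the B cell list had a fitted change below 0, beside 49.1% of all tested genes. The 18 markers summed to 4106 and 3278 CPM in the Aire-/- pair and to 6372 and 4058 CPM in the Aire+/+ pair. None of the 18 was at 0 in any library. Their part in the changes of the 10 members was not tested.

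**Figure D1:**
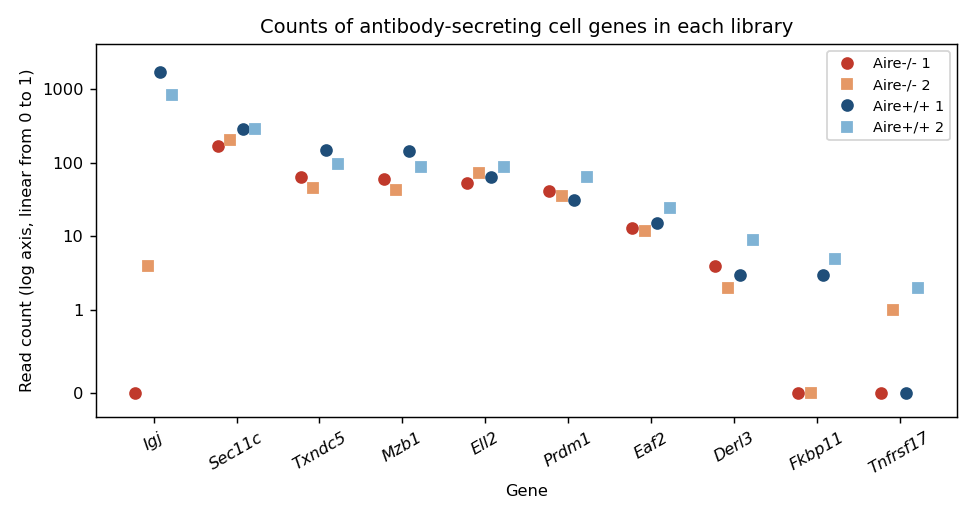
Read counts (vertical axis, logarithmic above 1) of the 10 genes in each library, with circles for replicate 1 and squares for replicate 2. Igj at 0 and 4 against 1674 and 827 counts separates the genotypes, while Derl3, Fkbp11 and Tnfrsf17 stay at 9 counts or fewer in every library.

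Tnfrsf17, Fkbp11 and Derl3 had 9 counts or fewer in every library. Tnfrsf17 (BCMA), the receptor through which the cytokine APRIL sustains plasma cells, lies on chromosome 16 from 11313232 to 11320074 and had 0 and 1 counts in the Aire-/- libraries against 0 and 2 in the Aire+/+ libraries. Both genotypes were under the 3 counts that a count of 0 allows. Fkbp11, a prolyl isomerase of the endoplasmic reticulum, lies on chromosome 15 from 98724368 to 98728198 and had 0 and 0 counts in the Aire-/- pair and 3 and 5 in the Aire+/+ pair. Over the pairs, 8 counts against 0 gave an exact 95% lower limit of 1.59 for the ratio of Aire+/+ to Aire-/-, for counting error alone. Derl3, a derlin that helps move misfolded proteins out of the endoplasmic reticulum, lies on chromosome 10 from 75893398 to 75895941. Its counts were 4 and 2 in the Aire-/- pair and 3 and 9 in the Aire+/+ pair, so the genotypes overlapped. These 3 genes fell below the filter on low counts, which left 7 of the 10 members fitted. In Aire+/+ libraries their mean levels per kilobase were 1.02 CPM for Tnfrsf17, 3.74 for Derl3 and 4.45 for Fkbp11, against 722 for Igj.

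**Figure D2:**
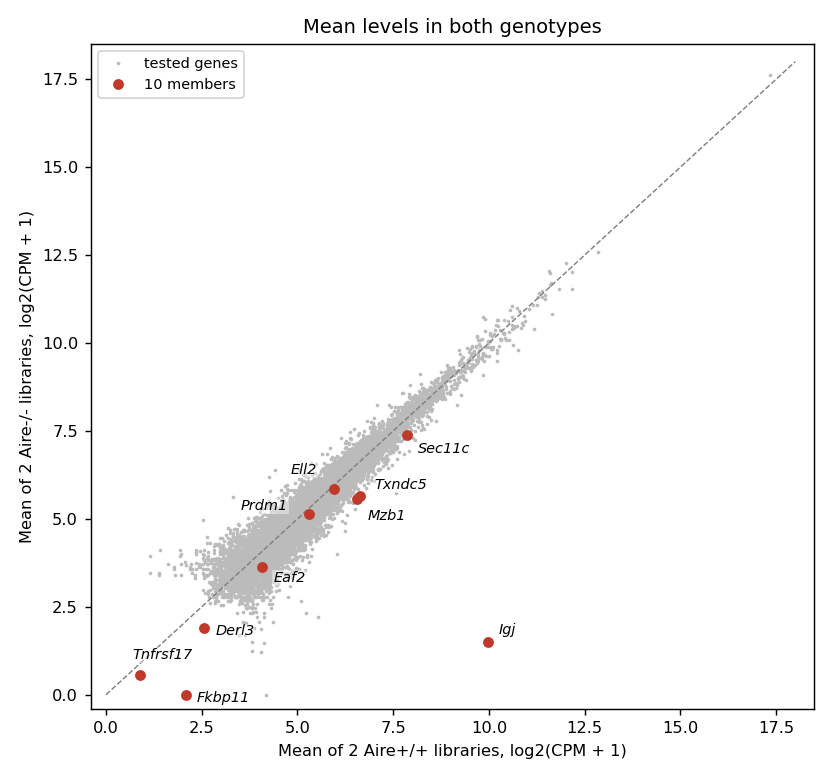
Mean level of each tested gene (grey) and of the 10 members (red) in Aire+/+ (horizontal) and Aire-/- (vertical) libraries, both as log2(CPM + 1), with a dashed line of equality. Igj stands far to the lower right at means of 1006 and 1.85 CPM, apart from the other members.

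Mzb1 and Txndc5 were lower in both Aire-/- libraries and kept nearly the same proportion to each other. Mzb1 is a chaperone of the endoplasmic reticulum that aids antibody assembly in marginal zone B cells and plasma cells. Its counts were 60 and 43 in the Aire-/- pair and 141 and 88 in the Aire+/+ pair, or 46.6 ± 9.66 against 92.3 ± 26.9 CPM (SD, n = 2 each). The fitted log2 fold change was -0.99 (SE 0.31). Txndc5, a protein disulfide isomerase that forms disulfide bonds in secreted proteins, lies on chromosome 13 from 38500266 to 38528824. Its counts were 63 and 45 in the Aire-/- pair and 148 and 95 in the Aire+/+ pair, or 48.8 ± 10.2 against 98 ± 26.7 CPM, with a log2 fold change of -1.01 (SE 0.30). For both genes the highest library was Aire+/+ replicate 1, which also held the most B cell transcript, and the genotypes did not overlap. The ratio of Txndc5 to Mzb1 counts was 1.05 in Aire-/- replicate 1, 1.05 in Aire-/- replicate 2, 1.05 in Aire+/+ replicate 1 and 1.08 in Aire+/+ replicate 2.

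Set against B cell transcript, these genes differed less between genotypes. Per 1000 counts of Ms4a1, Cd79a and Cd79b, Mzb1 stood at 40.03 and 39.59 in the Aire-/- pair and 54.6 and 56.3 in the Aire+/+ pair. Txndc5 stood at 42.0 and 41.4 in the Aire-/- pair and 57.3 and 60.7 in the Aire+/+ pair. Libraries of the same genotype were close on this scale, and the genotypes still did not overlap. Cd79a, part of this denominator, also separated the genotypes, at 378 and 292 counts in the Aire-/- pair and 857 and 568 in the Aire+/+ pair. Its fitted log2 fold change was -0.93 (SE 0.22), beside -0.99 for Mzb1 and -1.01 for Txndc5. Ms4a1 and Cd79b overlapped between genotypes, with changes of -0.32 and -0.37. Against Cd79a alone, Mzb1 overlapped between genotypes. It had 60 counts to 378 of Cd79a in Aire-/- replicate 1, a higher proportion than 88 to 568 in Aire+/+ replicate 2. For Txndc5 the proportions in these libraries were nearly equal, at 63 to 378 and 95 to 568. Against the CD3 chains, Mzb1 ranged from 39.6 to 169 per 1000 counts and Txndc5 from 41.4 to 178. Igj counts were 11.9 and 9.40 times those of Mzb1 in the Aire+/+ libraries, but 0 and 0.093 times in the Aire-/- libraries. Bmp6, Gm47994 and Gm31834 overlap Txndc5 on the other strand, where reads cannot be assigned without strand, and a Spata24 model overlaps Mzb1 on its own strand.

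**Figure D3:**
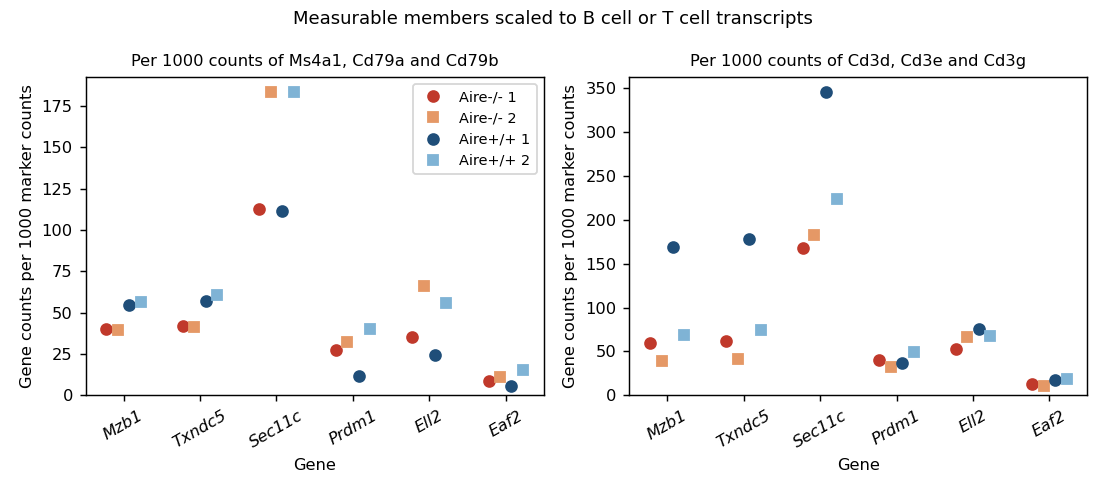
Counts of 6 members per 1000 counts of 3 B cell genes (left) and of 3 CD3 chain genes (right) in each library, with circles for replicate 1 and squares for replicate 2. On the left Mzb1 and Txndc5 pair by genotype, at 39.6 to 42.0 in Aire-/- and 54.6 to 60.7 in Aire+/+ libraries. Sec11c pairs by replicate number, and Prdm1, Ell2 and Eaf2 are also higher in replicate 2 of both genotypes.

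Sec11c was the most abundant member in Aire-/- libraries and the 1 member besides Igj, Mzb1 and Txndc5 with over 100 counts in any library. It is a catalytic subunit of signal peptidase, which removes the signal peptide from proteins entering the endoplasmic reticulum. Its counts were 169 and 199 in the Aire-/- pair and 288 and 287 in the Aire+/+ pair, or 167 ± 23.7 against 233 ± 8.20 CPM (SD, n = 2 each). The log2 fold change was -0.48 (SE 0.21), and the genotypes did not overlap. Sec11a, the other catalytic subunit, had 136, 146, 158 and 149 counts in the same order, a fitted change of 0.04 on the log2 scale (SE 0.22) with an adjusted p of 0.99 in edgeR. The ratio of Sec11c to Sec11a counts was 1.24 and 1.36 in the Aire-/- pair and 1.82 and 1.93 in the Aire+/+ pair. Unlike Mzb1 and Txndc5, Sec11c per 1000 B cell counts followed the replicate number. It stood at 113 and 183 in the Aire-/- pair and 112 and 184 in the Aire+/+ pair. Prdm1, Ell2 and Eaf2 were also higher on this scale in replicate 2 of both genotypes, where the B cell sum was smaller. In Sec11c, too, a gene model on the opposite strand overlaps.

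The regulators of the program showed no separation of the size seen in Igj. Prdm1 encodes Blimp-1, which is also expressed in activated T cells, and lies on chromosome 10 from 44437174 to 44528558. Its counts were 41 and 35 in the Aire-/- pair and 31 and 63 in the Aire+/+ pair, so the Aire+/+ pair enclosed the Aire-/- pair (34.4 ± 2.93 against 38.5 ± 19.8 CPM, log2 fold change -0.16, SE 0.40). Aire+/+ replicate 1, with the most Igj, had the least Prdm1, and without Aire+/+ replicate 2 the fitted change of Prdm1 turned to 0.49. Ell2, an elongation factor that favours the secreted form of immunoglobulin heavy chain mRNA, lies on chromosome 13 from 75707484 to 75772361. Its counts were 53 and 72 in the Aire-/- pair and 63 and 87 in the Aire+/+ pair, which overlap (log2 fold change -0.11, SE 0.32). That value was 0.12 without Aire-/- replicate 1 and 0.19 without Aire+/+ replicate 2. Eaf2, a cofactor of the ELL proteins that is also expressed in germinal centre B cells, lies on chromosome 16 from 36792884 to 36875068 and had 13 and 12 counts in the Aire-/- libraries against 15 and 24 in the Aire+/+ libraries. Its log2 fold change of -0.49 (SE 0.54) was smaller in size than its SE and came to -0.07 without Aire+/+ replicate 2. The CPM of Eaf2 did not overlap between genotypes, but 11.6 in Aire-/- replicate 1 and 11.8 in Aire+/+ replicate 1 are nearly equal. Antisense or opposite-strand models overlap Ell2 and Eaf2, and Gm48302 and Gm23127 overlap Ell2 on its own strand.

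Close relatives of these members were present in all 4 libraries. None was called, beside 0.0204% of all tested genes called lower and 0% higher, so nothing is read from that. Ell, the founding member of the elongation factor family, had 36, 34, 40 and 39 counts in Aire-/- replicates 1 and 2 and Aire+/+ replicates 1 and 2 (log2 fold change -0.02, SE 0.34). Eaf1, the paralog of Eaf2, had 25, 26, 21 and 26 counts in that order. Derl1 and Derl2, the broadly expressed derlins, were far more abundant than Derl3. Derl1 had 84, 197, 130 and 59 counts in the same order, with the highest in Aire-/- replicate 2, and Derl2 had 123, 83, 65 and 100. Of the other receptors of the APRIL and BAFF cytokines, Tnfrsf13b (TACI) had 9 and 11 counts in the Aire-/- pair and 47 and 22 in the Aire+/+ pair, a fitted change of -1.60 on the log2 scale (SE 0.52) with an adjusted p of 0.84 in edgeR. Tnfrsf13c, the BAFF receptor of mature B cells, had 93 and 54 against 106 and 89 counts, with a change of -0.25 (SE 0.30) and an edgeR adjusted p of 0.98.

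At an adjusted p under 0.05, edgeR called 0.0204% of the 9783 tested genes lower and 0% higher. Igj is 1 of the 2 genes called lower, but its counts in this comparison prompted the choice of the set, so that call is no test of it. In 5 of the 7 both Aire-/- values lay below both Aire+/+ values on the CPM scale, those of Igj, Mzb1, Txndc5, Sec11c and Eaf2, and in 0 of the 7 both lay above. Over all tested genes 17.3% lay below without overlap and 17.2% above. The members were chosen with this comparison known, and nothing is read from these numbers of members.

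The fitted changes of the general secretory machinery lay on both sides of 0. Of 126 genes for translocation, folding, glycosylation, degradation, transport to the Golgi and stress sensing, none of them among the 10 members, 117 were tested. With p-values adjusted over all genes, edgeR called 0 of these lower and 0 higher, and so did DESeq2 and limma-voom. Only 0.0204% of all tested genes were called lower and 0% higher, so a count of 0 among 117 sets these genes apart from no others. At an unadjusted p under 0.05 edgeR had 3 lower and 2 higher. The fitted change was above 0 for 64 and below 0 for 53, and the median was 0.02 on the log2 scale beside 0.01 over all tested genes. Both Aire-/- values lay below both Aire+/+ values for 24 of the 117, or 20.5%, beside 17.3% of all tested genes, and above them for 16, or 13.7%, beside 17.2%.

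In the list for signal peptide recognition, translocation and cleavage, 12 of 22 tested genes were below 0 and 10 above (median -0.06), with 0 called. Spcs3 and Spcs2, accessory subunits of the signal peptidase that holds Sec11c, stood at 338 ± 19.9 against 276 ± 33.3 CPM and at 279 ± 83.1 against 275 ± 29.8 CPM in Aire-/- and Aire+/+ libraries (SD, n = 2 each). Sec61a1, the channel of the translocon, stood at 280 ± 46.6 against 250 ± 40.9 CPM, and Ssr3, a subunit of the translocon-associated complex, at 202 ± 3.45 against 231 ± 16.7 CPM. None of these differences passed the test.

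Chaperones and folding enzymes were high in 1 Aire-/- library. Their list had 17 of 27 tested genes above 0 and 10 below, with a median of 0.17 and 0 called. Hspa5 (BiP), the chaperone that holds free heavy chains, had 864 CPM in Aire-/- replicate 1, 1454 in Aire-/- replicate 2, 818 in Aire+/+ replicate 1 and 843 in Aire+/+ replicate 2 (fitted change 0.48 on the log2 scale, SE 0.22, edgeR adjusted p = 0.89). Hsp90b1 (GRP94) stood at 706, 1306, 758 and 954 CPM and Pdia3, a disulfide isomerase, at 541, 919, 576 and 661 CPM in the same order. Canx (calnexin) stood at 596 ± 99.9 against 488 ± 79.7 CPM. For all 4 genes the highest value was that of Aire-/- replicate 2, which held 4 counts of Igj, and without that library the median of the list was -0.14.

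N-linked glycosylation genes were below 0 for 8 of 14 tested (median -0.03) and degradation genes for 7 of 19 (median 0.13). Transport from the endoplasmic reticulum to the Golgi had 10 of 24 below 0 (median 0.02), and the stress sensors and their effectors 6 of 11 (median -0.03). No gene of these 4 lists was called in either direction. Rpn2, a subunit of the oligosaccharyltransferase, stood at 367 ± 57.9 against 267 ± 22.7 CPM in Aire-/- and Aire+/+ libraries (fitted change 0.45 on the log2 scale, SE 0.20, edgeR adjusted p = 0.89). Vcp, the ATPase that extracts proteins for degradation, stood at 347 ± 76.6 against 295 ± 24.9 CPM, and Herpud1, a stress-induced partner of the degradation complex, at 227 ± 24.7 against 185 ± 3.52 CPM. Copa and Copb1, coat proteins of vesicles between Golgi and endoplasmic reticulum, differed by 0.01 and 0.07 on the log2 scale. Atf6, a stress sensor, stood at 197 ± 14.0 against 167 ± 1.11 CPM, and Atf4, the factor downstream of PERK, at 118 ± 30.2 against 178 ± 0.169 CPM (fitted change -0.59 on the log2 scale, SE 0.24, edgeR adjusted p = 0.89).

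**Figure D4:**
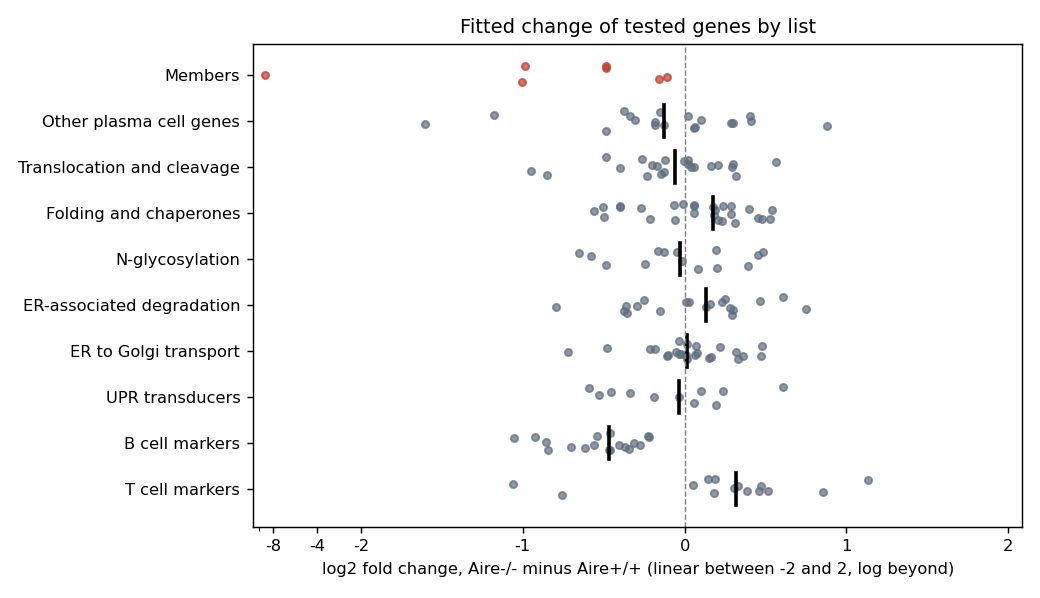
Fitted log2 fold change, Aire-/- minus Aire+/+, of each tested gene by list, with members in red and other genes in grey (10 members left out of the other lists), and a black bar at the median of each list other than the members. Medians of the 6 secretory lists lie between -0.06 and 0.17, and Igj lies at -9.03.

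Other genes of plasma cells went in both directions. Of the 21 genes of that list in the table, 19 were tested, 10 below and 9 above 0 (median -0.13), with 0 called. Sdc1 (CD138), a surface proteoglycan used to sort plasma cells, had 226 and 322 counts in the Aire-/- libraries against 197 and 303 in the Aire+/+ libraries, so the genotypes overlapped (fitted change 0.29 on the log2 scale, SE 0.27, edgeR adjusted p = 0.97). Slc3a2, an amino acid transporter chain, had 326 and 457 against 404 and 433 counts, Trp53inp1, a stress response gene, 194 and 271 against 330 and 251, and Lax1, a membrane adaptor of lymphocytes, 216 and 217 against 170 and 194. Xbp1 and Irf4, regulators of plasma cells picked after their values were seen, had 34 and 59 against 73 and 25 counts, and 121 and 164 against 222 and 225 counts. In counts the genotypes overlapped for Xbp1 but not for Irf4, which was lower in both Aire-/- libraries. Irf4 acts in activated T cells as well. Immunoglobulin constant genes are not analysed here.

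None of the 11 B cell genes that Blimp-1 represses was called, beside 0.0204% of all tested genes called lower and 0% higher. A count of 0 among 11 thus sets these genes apart from no others. The 11 genes summed to 1105 and 941 CPM in the Aire-/- pair and to 1702 and 1084 CPM in the Aire+/+ pair. Only Aire+/+ replicate 1 lay above both Aire-/- libraries. Of 11 tested, 10 had a fitted change below 0, beside 49.1% of all tested genes. The median of the 11 was -0.47, beside -0.46 for the 18 B cell markers, with which 5 genes are shared. In 4 of the 11, or 36.4%, both Aire-/- values lay below both Aire+/+ values, beside 17.3% of all tested genes. Ebf1, a founding factor of the B lineage, stood at 147 ± 21.7 against 202 ± 65.8 CPM, and Ciita, the activator of class II genes, at 105 ± 28.6 against 156 ± 54.9 CPM in Aire-/- and Aire+/+ libraries (SD, n = 2 each). Cxcr5, the follicle homing receptor, stood at 181 ± 70.9 against 267 ± 96.6 CPM, and Cd22, an inhibitory receptor, at 163 ± 70.7 against 189 ± 54.2 CPM. In each of these 4 the genotypes overlapped. Faim3 (now Fcmr), the IgM receptor of B cells, stood at 217 ± 10.9 against 389 ± 142 CPM with no overlap (fitted change -0.84 on the log2 scale, SE 0.24, edgeR adjusted p = 0.78). Pigr, the receptor that carries joined IgA and IgM across epithelium, had 1 to 6 counts per library, named after its values were seen. The ELL partners in the super elongation complex had 5 of 11 genes above 0 and 6 below (median -0.02), with 0 called, among them Aff4 at -0.13 and Ccnt1 at -0.02.

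The 5 genes whose separation between genotypes was most like that of Igj were on none of the secretory lists. Those lists hold 117 of the 9783 tested genes, so nothing about secretory genes is read from 5. All 5 passed the filter on low counts through their Aire+/+ libraries alone. Likeness was measured over the 4 libraries as the lowest Aire+/+ CPM plus 1, divided by the highest Aire-/- CPM plus 1. It was 147 for Igj, followed by 10.2 for Cd14, the lipopolysaccharide co-receptor of monocytes, and 4.86 for Bcat1, an aminotransferase of branched-chain amino acids. Next came Swsap1, a DNA repair factor, at 4.05, Stab1, a scavenger receptor of macrophages, at 3.93, and Smim8, a small membrane protein, at 3.41. Cd14 had 0 and 0 counts in the Aire-/- pair and 32 and 11 in the Aire+/+ pair, and Stab1 had 3 and 0 against 17 and 21. Lung epithelial markers were near 0, with their 9 genes summing to 12.9 to 27.6 CPM per library. Of the 12 macrophage and monocyte markers none was at 0 in all libraries, and they summed to 53.4 and 112 CPM in the Aire-/- pair and to 238 and 76.6 CPM in the Aire+/+ pair. Lyz2, a lysozyme of myeloid cells, made up the largest part of the sum in Aire-/- replicate 2 and Aire+/+ replicate 1. Without it, a choice made after seeing the data, the sums were 52.5 and 55.4 CPM in the Aire-/- pair and 90.8 and 75.0 CPM in the Aire+/+ pair. Only 4 of the 12 passed the filter on low counts, Cd14 through its Aire+/+ libraries alone. All 4 had a fitted change below 0 (median -1.75), beside 49.1% of all tested genes, and nothing is read from so few. Lyz2, 1 of the 4, had 1 and 61 counts in the Aire-/- pair and 186 and 2 in the Aire+/+ pair. C1qa and C1qb were at 0 in 3 of the 4 libraries. The part of such cells in the level of Igj was not tested.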

How the data were processed

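The deposited values are raw counts, whole numbers of reads for each gene symbol in the 4 libraries, per the file headers. TopHat2 2.0.10, Cufflinks 2.2.1 and mm10 are named without role per the submitters' processing notes. The counting tool, with its annotation and use of strand, is not given in the sources used here. Reads carry no molecular identifiers, so intervals and the floor of 3 counts cover counting error only.

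Counts of all genes were tested with edgeR 4.0.16 (R 4.3.3, limma 3.58.1, DESeq2 1.42.0): filterByExpr (minimum count 10, minimum total 15), TMM, quasi-likelihood F test on genotype, Benjamini-Hochberg adjustment, called at an adjusted p under 0.05. This left 9783 of 22865 genes. CPM use TMM-scaled totals. Each SE was derived from the fitted change and its F statistic (size of the change over the root of F). Chi-square per degree of freedom between libraries was 4.54 in Aire-/- and 4.39 in Aire+/+, so neither pair was a copy. Alternatives were 2 other scalings, 2 other filters, DESeq2, limma-voom, a replicate block and leaving out each library. The fit was tested on simulated data. The members and lists were chosen with earlier results of these data known. Named genes are the members and their relatives, the 4 most abundant tested genes of each list or the 3 most abundant of each marker list, and the 5 most like Igj, and several of these are not reported by name. Coordinates and promoter windows came from RefSeq (GRCm38.p6), lengths and overlaps from GENCODE M21.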

Additional observations from a re-analysis of the deposited data

How the results depend on the processing

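With 2 libraries per genotype, counts of calls moved with the settings. Genes called lower numbered 26 and genes called higher 21 with no filter on low counts, and 1 lower with limma-voom, a gene other than Igj. With the replicate number as a replicate block 4 were called lower and 2 higher. Same-numbered libraries did not deviate together (r = -0.08 across genes). With 2 libraries per genotype this cannot exclude a shared sort or day, of which the labels say nothing. Leaving out each library in turn gave 6 to 42 lower and 5 to 21 higher, with the lone library assumed to vary like the other pair. Upper-quartile and DESeq2 size factors, the stricter filter and DESeq2's test kept the count of lower genes at 2 or 3 and of higher genes at 0. Among secretory genes 0 were called in either direction under every setting. Their median log2 fold change was 0.02, or -0.01 with upper-quartile factors, and ran from -0.14 without Aire-/- replicate 2 to 0.12 without Aire-/- replicate 1. The Igj log2 fold change ran from -13.2 without Aire-/- replicate 2, which leaves only a count of 0 and so depends on the prior count, to -8.05 without Aire-/- replicate 1. The Igj ratio of 390 against B cell counts was 620 against CD3 chain counts and 582 against library totals. Of 132 other values recomputed, 12 moved by more than 1 SD between replicates, all on leaving out a library. Genes of a few counts, Tnfrsf17, Fkbp11 and Derl3 among them, are limited by depth.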
